A study of Mus musculus with 58 samples.

Results

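The comparison described here is lifelong caloric restriction in old hematopoietic stem cells, taken from 8 of the 58 samples of the series. Its libraries were taken by their labels, as the 4 RNA-seq libraries of old restricted mice (OCR) and the 4 of old ad libitum fed mice (OAL), out of 34 RNA-seq libraries in all. The mice were male wild-type C57BL/6 animals of 24 to 26 months. OCR mice had eaten 40% less than ad libitum fed animals from an age of 3 to 4 months, and OAL mice had free access to chow for life. The whole series also holds refed mice, young mice, knockdowns in transplanted cells, chromatin accessibility and ChIP-seq. HSCs were sorted from bone marrow without lineage markers, with Sca-1, c-Kit and CD150, and without CD34 and Flk2, and the values were read counts per gene. The cells came from 1 strain and sex, and the labels do not say how many mice went into a library. The p-values therefore measure the spread between these libraries.

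HSCs sit at the top of blood formation and are mostly quiescent. They are known to rely on glycolysis and on fatty acid oxidation, to keep protein synthesis low, and to take signals from niche ligands such as thrombopoietin, stem cell factor, BMPs and retinoids. In a fasting tissue, PPAR and FOXO factors typically switch on genes that spare glucose, while SREBP factors switch on sterol and fatty acid synthesis when sterols are low. The unfolded protein response raises the chaperones of the endoplasmic reticulum (ER) when secretory proteins need folding.

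Of 27150 genes tested, 1511 were DEGs, that is, they had an adjusted p below 0.05 in edgeR's quasi-likelihood test and a fold change above 1.2. This was 5.57% of the genes, with 689 higher in OCR (2.54%) and 822 lower (3.03%). Levels are given in CPM, normalised counts scaled to a common library size. Of the 12395 tested genes whose mean level reached 5 CPM, 11.1% were DEGs (4.96% higher and 6.09% lower). This second background is given because DEGs were drawn for description from genes at that level. When the scaling factors came from the 12395 better expressed genes alone, 894 DEGs were higher and 698 lower, so that the share of higher genes went from 45.6% to 56.2%. The median log2 fold change of all tested genes was 0.02, and 0.05 with that scaling. Cell cycle genes made up 257 of the DEGs, 251 of them higher in OCR, and 118 DEGs belonged to the aging signature list that the study used, a consensus of other studies of HSCs. The 1140 DEGs in neither group were 424 higher and 716 lower. The gene lists described below were not cleared of aging signature genes. Of the DEGs named below, Gpr183, Socs2, Jun, Itgb3, Clu, Osmr, Gda, Gadd45g, Mt1, Gpx3, Jam2, Ramp2, Anxa2, Plac8, Sult1a1, Id2, Kdr and the retinoid genes are in the aging signature list.

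The libraries held 27979109 to 34385179 counts. Olfactory and vomeronasal receptor genes, which HSCs should not use, held 530 to 752 CPM together in OAL and 561 to 1260 CPM in OCR, with replicate 3 of OCR the highest. RNA of the markers that the sort kept (Kit, Slamf1 and Ly6a) was present in every library. Cd34 and Flt3, whose proteins (CD34 and Flk2) the sort excluded, also had RNA. Cd34 held 116 to 149 CPM in OAL and 107 to 138 CPM in OCR. Flt3 held 11.2 to 17 CPM in OAL and 16.2 to 24 CPM in OCR. RNA can differ from surface protein, which the counts do not measure. Kit, the stem cell factor receptor, held 1474 to 1938 CPM in OAL and 1544 to 1943 CPM in OCR, and Slamf1 (CD150) 96.5 to 109 CPM in OAL and 105 to 121 CPM in OCR. Ly6a, which encodes Sca-1, was the only 1 of the 5 sort markers (with Kit, Slamf1, Cd34 and Flt3) that passed the test, and it fell by 0.47 on the log2 scale, from 215 ± 18 to 155 ± 13.7 CPM (SD, n = 4 each, edgeR adjusted p = 0.000404). Plasma cell transcripts were present in only some OAL libraries: Igkc, the immunoglobulin kappa constant gene, held 186, 0.656, 61.6 and 0.504 CPM in OAL replicates 1 to 4 and 0.121 to 0.73 CPM in OCR. Hemoglobin and other erythroblast genes summed to 160.2, 40, 166 and 249 CPM in OAL replicates 1 to 4 and to 39 to 73.2 CPM in OCR. Neutrophil granule genes summed to 7.89 to 93.4 CPM in OAL and to 6.7 to 113 CPM in OCR, with wide overlap. T and NK cell genes summed to 53.5 to 65.9 CPM in OAL and to 32.2 to 41.4 CPM in OCR, without overlap. Most of this sum was Klrb1c, with 47.1 to 59.2 CPM in OAL and 23.8 to 31.9 CPM in OCR, while Cd3e held 0.504 to 1.22 CPM over all libraries.

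Promoter sequences with a known regulatory element are shown first, for 7 ER genes that rose and for Txnip, which fell. The ER stress response element, read on either strand as CCAAT and CCACG with 9 bases of any kind between them, is bound by NF-Y together with ATF6. It was found in 39 of 32851 RefSeq promoters on GRCm38.p6, or 0.119% (250 bases before to 50 after each start). Of 29 tested genes with it, 7 were DEGs higher in OCR, 1 (Tdrd9) was lower and the others did not pass. Of all tested genes, 2.54% were DEGs higher in OCR and 3.03% lower. The 7 genes are shown with the element in capitals, and they were chosen after their values were seen, because they held the element and were DEGs.
Hspa5: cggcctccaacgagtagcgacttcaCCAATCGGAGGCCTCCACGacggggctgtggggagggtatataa
Hsp90b1: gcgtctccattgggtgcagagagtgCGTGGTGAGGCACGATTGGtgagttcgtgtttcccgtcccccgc
Calr: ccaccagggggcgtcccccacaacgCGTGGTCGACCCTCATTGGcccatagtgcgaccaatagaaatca
Pdia6: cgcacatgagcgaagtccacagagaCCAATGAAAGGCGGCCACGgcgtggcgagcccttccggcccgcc
Creld2: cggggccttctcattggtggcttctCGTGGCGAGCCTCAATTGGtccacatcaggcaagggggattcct
Dnajc3: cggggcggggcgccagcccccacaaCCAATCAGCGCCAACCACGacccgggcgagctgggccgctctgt
Derl3: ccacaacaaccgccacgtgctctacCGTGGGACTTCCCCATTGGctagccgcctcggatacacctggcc
The windows lie at chr2:34772000-34772068 (Hspa5, plus strand), chr10:86705508-86705576 (Hsp90b1, minus), chr8:84847050-84847118 (Calr, minus), chr12:17266466-17266534 (Pdia6, plus), chr15:88819495-88819563 (Creld2, plus), chr14:118937802-118937870 (Dnajc3, plus) and chr10:75893217-75893285 (Derl3, plus). Hsp90b1 held a second copy of the element further upstream. The paired E-box, read on either strand as 2 copies of CACGNG with 5 bases of any kind between them, is the form through which MondoA and ChREBP act on glucose-responsive genes. It was found in 16 of the promoters (0.0487%) and in 12 tested genes, of which Txnip, Man2b2 and Tdrd9 were DEGs, all lower. The number of genes is small, the share of lower DEGs over all tested genes was 3.03%, and Tdrd9 is counted for both elements. The Txnip window lies at chr3:96557847-96557913, plus strand.
Txnip: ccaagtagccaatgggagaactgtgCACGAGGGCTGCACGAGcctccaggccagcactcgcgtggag
The capitals mark the E-box pair, and a match describes letters, not binding. A heat shock element, searched on either strand as GAA, TTC and GAA with 2 bases of any kind between neighbours, was found in 198 promoters (0.603%). Of 104 tested genes with it, 4 were DEGs higher and 1 was lower, a share near that of all tested genes.

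Many ER chaperone genes rose in OCR HSCs. Of 38 tested genes in the list of ER chaperones and the unfolded protein response, 18 were DEGs higher in OCR, none was lower and 20 did not pass, with a median log2 fold change of 0.27 beside 0.02 for all tested genes. In such bulk libraries, fewer cells of a type and less RNA per cell cannot be told apart. The count of higher DEGs was 15 to 20 when any single library was left out. DESeq2 called no gene of the list lower either, and 1 gene was lower at an unadjusted p below 0.05 in edgeR. Sdf2l1, a component of the ER chaperone complex, gave the largest change of the list. It lies at chr16:17130138-17132383 on the minus strand, and held 16.8, 14, 15.2 and 8.54 CPM in OAL replicates 1 to 4 and 63.6, 59.5, 36.4 and 32.4 CPM in OCR replicates 1 to 4. All OCR libraries lay above all OAL libraries, with replicates 1 and 2 of OCR the highest, and the log2 fold change was 1.81 ± 0.182 (SE, edgeR adjusted p = 5.80e-08). Sec24d, a coat protein of the vesicles that leave the ER, rose from 19 ± 1.69 to 46.3 ± 7.9 CPM, with a log2 fold change of 1.29 ± 0.115 (edgeR adjusted p = 7.71e-09). Hsp90b1, the ER form of HSP90, held 292, 302, 280.1 and 266 CPM in OAL and 566, 597, 452 and 527 CPM in OCR. Its log2 fold change was 0.91, and that of Hyou1, a chaperone of the same compartment, was 0.90. Hspa5, the central ER chaperone BiP, rose from 379 ± 47 to 642 ± 101 CPM (log2 fold change 0.76 ± 0.102, edgeR adjusted p = 6.35e-06). The other genes with the element shown above had log2 fold changes of 0.54 (Calr), 0.69 (Pdia6), 0.75 (Creld2) and 0.34 (Dnajc3), and Derl3 had 1.33 at a low level of 0.993 ± 0.342 against 2.5 ± 0.258 CPM. Among the sensors and their factors, 4 genes that did not pass the test are given, all named after their values were seen. Their log2 fold changes were 0.02 for Xbp1, 0 for Atf6, -0.05 for Eif2ak3 and -0.21 for Ern1. Counts per gene do not measure the activity of these proteins, which was not tested.

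Of 39 tested heat shock genes, 7 were DEGs higher in OCR and 1 was lower, with a median of 0.13, and the count of higher genes was 4 to 10 over single left-out libraries (4 without replicate 4 of OAL and 4 without replicate 1 of OCR). Hspa8, the constitutive cytosolic HSP70, held 974, 862, 1083 and 815 CPM in OAL and 1639, 1305, 892 and 1596 CPM in OCR. Replicate 3 of OCR lay within the OAL range, and the log2 fold change was 0.54 ± 0.126 (edgeR adjusted p = 0.00687, and 0.057 with DESeq2). Hsph1, a co-chaperone of HSP70, had the same shape, with 49 CPM in replicate 3 of OCR against 40.8 to 54.6 CPM in OAL and 74.3 to 87.2 CPM in the other 3 OCR libraries. The log2 fold change was 0.40 for Stip1, which links HSP70 to HSP90, and -0.77 for Hspb8, a small heat shock protein. The cold-inducible RNA-binding genes fell in OCR, with log2 fold changes of -0.75 for Cirbp (162 to 266 CPM in OAL and 81.8 to 165 CPM in OCR, with overlap of the groups) and -0.38 for Rbm3 without overlap.

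**Figure D1:**
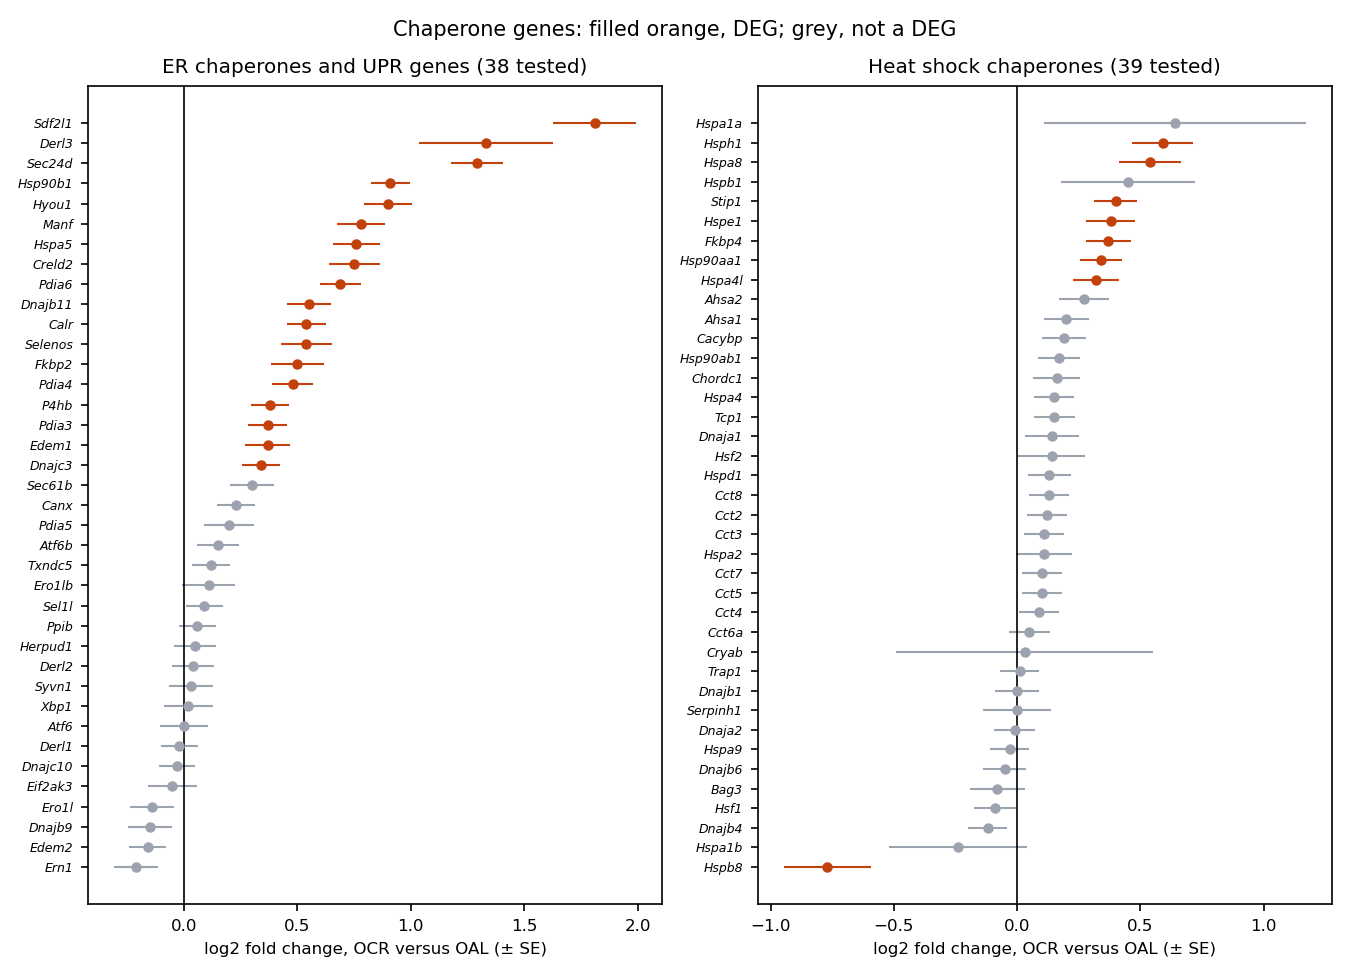
Log2 fold change of OCR versus OAL with its SE (x axis) for each tested gene (y axis) of the ER chaperone and unfolded protein response list (left) and the heat shock list (right). Orange points are DEGs, 18 higher on the left and 7 higher with 1 lower on the right, and grey points did not pass.

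Of 21 tested PPAR and fasting targets, 10 were DEGs lower in OCR, none was higher and 11 did not pass, with a median log2 fold change of -0.37. The count was 9 to 10 with any library left out. At an unadjusted p below 0.05, edgeR had 2 genes higher, and DESeq2 called 1 higher. Pdk4, the kinase that shuts pyruvate dehydrogenase, lies at chr6:5483351-5496309 on the minus strand. It held 8.61, 9.22, 8.98 and 14.2 CPM in OAL replicates 1 to 4 and 1.22, 1.79, 2.45 and 2.28 CPM in OCR replicates 1 to 4. No library overlapped, and the log2 fold change was -2.40 ± 0.215 (edgeR adjusted p = 7.76e-09), the largest fall among the genes of the metabolic lists. Txnip, an arrestin that limits glucose uptake, is in this list but also has the paired E-box of glucose-responsive genes shown above. It held 2272, 2173, 2432 and 2776 CPM in OAL and 1164, 1016, 1110 and 1279 CPM in OCR, with a log2 fold change of -1.08 ± 0.0902. Its relative Arrdc4 had -0.93, and Angptl4, a lipase inhibitor of the fasting response, -0.89.

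Of 23 tested genes of fatty acid oxidation, none was called higher in OCR, also with DESeq2 and at an unadjusted p below 0.05 in edgeR. DEGs lower in OCR numbered 3 (13%, near the 11.1% of genes with a mean of 5 CPM or more). They were Cpt1a, which moves fatty acids into mitochondria (353 ± 26.8 against 212 ± 17.9 CPM, log2 fold change -0.73 ± 0.0828), Slc25a20, the carnitine carrier (-0.42), and Acadl, the long-chain dehydrogenase (-0.48). Among 30 tested genes of glucose uptake and glycolysis, 6 were lower and none was higher, also with DESeq2, while 2 were higher at an unadjusted p below 0.05 in edgeR. Without replicate 1 of OAL the 6 became 3. Pfkfb3, which makes the activator of phosphofructokinase, held 79.3, 64.9, 69.9 and 82.1 CPM in OAL and 38.7, 41.7, 39.5 and 40.3 CPM in OCR. The groups stood apart by a log2 fold change of -0.89 ± 0.0904 (edgeR adjusted p = 7.50e-08). Hk3, Ldhb and Pdk2 had log2 fold changes of -0.35, -0.36 and -0.38, and Hk3 was not a DEG without replicate 1 or 4 of OAL.

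The respiratory chain showed few calls. No gene of the 23 tested in the TCA cycle was a DEG in edgeR, where 4 were higher and 1 lower at an unadjusted p below 0.05, and DESeq2 called 1 higher. Of 74 nuclear genes of oxidative phosphorylation, 1 was a DEG, Cox5a (log2 fold change 0.30), which was not a DEG without replicate 1, 3 or 4 of OAL, without replicate 1 or 2 of OCR or with the replicate block (edgeR adjusted p = 0.0613). No nuclear gene was lower in either tool, with 1 lower at an unadjusted p below 0.05 in edgeR. Of 11 mitochondrially encoded genes, 4 were DEGs lower in OCR (mt-Nd4, mt-Nd2, mt-Nd5 and mt-Cytb, -0.27 to -0.37), but only 1 with the scaling from better expressed genes. With that scaling mt-Cytb, mt-Nd2 and mt-Nd5 had log2 fold changes of -0.26, -0.24 and -0.24 with adjusted p of 0.00462, 0.0155 and 0.00716 in edgeR, and missed the fold threshold. The count was also 1 without replicate 1 or 4 of OAL or replicate 3 of OCR, and 2 without replicate 2 of OAL or replicate 4 of OCR.

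Part of the sterol and fatty acid synthesis genes rose. Of 26 tested cholesterol synthesis genes, 6 were DEGs higher in OCR and none was lower in edgeR or DESeq2 or at an unadjusted p below 0.05, with a median of 0.25. Leaving out replicate 1 of OAL or replicate 2 of OCR left 3 higher. Idi1, an isomerase of the isoprenoid pathway, rose from 11.4 ± 2.75 to 19.4 ± 2.63 CPM. The log2 fold change of Idi1 was 0.76 ± 0.153 (edgeR adjusted p = 0.00148), with 7.44 to 13.6 CPM in OAL and 15.7 to 21.9 CPM in OCR and no overlap of the groups. Of 21 genes of fatty acid synthesis and desaturation, 5 were higher and 1 was lower, with 3 higher without replicate 4 of OAL. Scd2, a desaturase, lies at chr19:44293674-44306864 and held 266, 258, 260.1 and 154 CPM in OAL and 461, 525, 420 and 514 CPM in OCR. All OCR libraries lay above all OAL libraries (log2 fold change 1.03 ± 0.12, edgeR adjusted p = 6.16e-07), and replicate 4 of OAL was lower than the other 3. Log2 fold changes were 0.45 for Srebf1, the factor that drives this pathway, and 0.39 for Fasn, fatty acid synthase.

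In the list of 16 genes of cholesterol efflux and lipid transport, 5 were higher and 2 lower, while the median was -0.08. Abca1, the pump that loads cholesterol onto apolipoproteins, held 44.2, 57.6, 40.5 and 32.2 CPM in OAL and 66.5, 86.9, 82.8 and 105 CPM in OCR (log2 fold change 0.97 ± 0.131). Its relative Abcg1 had a log2 fold change of 0.72 and the lipoprotein receptor Lrp8 of 0.59, while Clu, an apolipoprotein, had -0.97. Without replicate 4 of OAL, or replicate 2 or 4 of OCR, 3 genes were higher. In the list of serine, one-carbon and Atf4 targets, 5 of 29 rose and 1 fell, but between 1 and 6 rose over single left-out libraries. The count was 1 without replicate 4 of OAL or 2 of OCR, 2 without replicate 1 of OCR and 3 without replicate 1, 2 or 3 of OAL, and it was 9 with the scaling from better expressed genes. Mthfd2, a mitochondrial folate enzyme, had a log2 fold change of 0.76 and Psat1, of serine synthesis, 0.37, whereas Trib3, a target of the stress response, fell from 41 to 50.2 CPM in OAL to 16.2 to 27.2 CPM in OCR. Mthfd2 was not a DEG without replicate 3 or 4 of OAL or replicate 2 of OCR. Of 27 purine and pyrimidine genes, 4 rose and 2 fell, and no gene was called higher without replicate 4 of OAL or replicate 2 of OCR, 1 without replicate 1 of OCR and 2 without replicate 3 of OAL. With the scaling from better expressed genes, or without replicate 3 of OCR, 7 rose, and with that scaling 1 fell. In the catabolic branch, Gda, guanine deaminase, fell by 1.04 on the log2 scale.

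Of 35 tested antioxidant and detoxification genes, 7 fell and 1 rose. Metallothionein Mt2 held 23.1, 29.7, 36.1 and 38.8 CPM in OAL and 10.8, 13.6, 15.6 and 9.3 CPM in OCR, and the log2 fold change was -1.38 ± 0.153. The log2 fold change was -1.07 for Mt1 and -1.15 for Gpx3, a glutathione peroxidase. All 4 DEGs of the 18 tested retinoid genes (Cyp26b1, Dhrs3, Rdh10 and Aldh1a1) fell, and none rose, with either tool or at an unadjusted p below 0.05 in edgeR. Cyp26b1, which degrades retinoic acid, fell from 75.8 ± 9.99 to 32.7 ± 8.61 CPM, and the retinal reductase Dhrs3 had a log2 fold change of -1.09. All 4 are in the aging signature list.

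**Figure D2:**
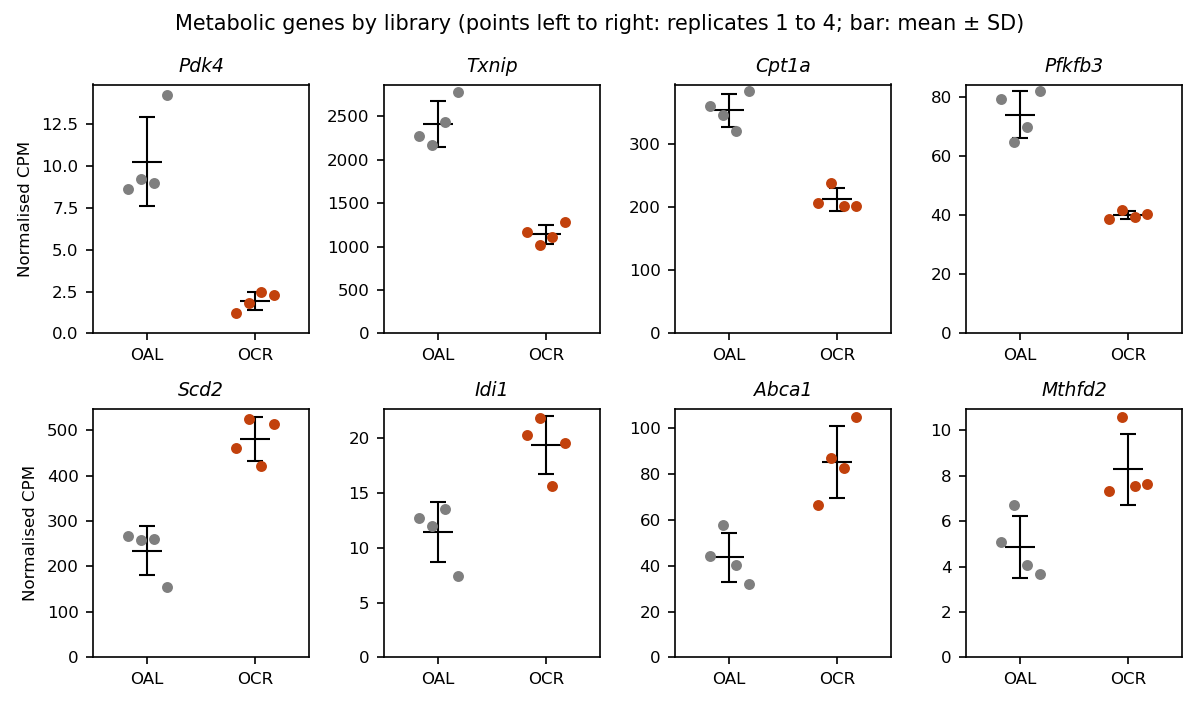
Normalised CPM (y axis) of 8 metabolic genes in each OAL (grey) and OCR (orange) library (points, replicates 1 to 4 from left to right), with the mean and SD as a bar. The OCR points lie below the OAL points for Pdk4, Txnip, Cpt1a and Pfkfb3 and above them for Scd2, Idi1, Abca1 and Mthfd2.

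Of 53 JAK-STAT and cytokine receptor genes, 10 were DEGs lower in OCR, 2 were higher and 41 did not pass. Socs2, a feedback inhibitor that STAT5 induces, held 16, 10.1, 7.82 and 12.7 CPM in OAL and 2.91, 4.73, 5.03 and 5.36 CPM in OCR (log2 fold change -1.37 ± 0.201, edgeR adjusted p = 2.78e-05). The survival kinase Pim2 held 212, 142, 86.5 and 117 CPM in OAL and 52.1, 75.7, 54.9 and 73 CPM in OCR. Replicate 1 of OAL was the highest for both genes, and without it the log2 fold change of Pim2 was -0.85. Cish, another STAT5 target, fell by 0.97 with overlap of the groups, and by 0.58 without that library, both on the log2 scale. Osmr, the oncostatin M receptor, fell by 0.93 on the log2 scale.

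Insulin and FOXO genes had 9 lower and 1 higher of 35 tested, and 4 to 9 lower over single left-out libraries, with 4 to 5 without replicate 1, 2 or 4 of OAL or replicate 1 of OCR. Foxo1, the factor that insulin excludes from the nucleus, held 85.7, 76.9, 82.4 and 92.6 CPM in OAL and 51.5, 50.1, 42.2 and 56.3 CPM in OCR. Its log2 fold change was -0.76 ± 0.0931. Log2 fold changes were -0.60 for Irs2, an insulin receptor substrate, -0.98 for Trib2, a kinase-like inhibitor, and -0.55 for Cited2. Glucocorticoid targets had 7 lower and 1 higher of 24, among them Glul, glutamine synthetase (-0.63), and Gadd45g (-0.77).

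TGF-beta and BMP genes had 10 lower and 2 higher of 50 tested. Klf11, a factor induced by TGF-beta, lies at chr12:24651274-24662789 and held 48.5, 49.5, 56.6 and 61.2 CPM in OAL and 16.6, 23.2, 20 and 20.1 CPM in OCR. Every OCR library lay below every OAL library, with a log2 fold change of -1.43 ± 0.11 (edgeR adjusted p = 8.36e-10). Its relative Klf10 fell by 1.01 on the log2 scale. The ligand Bmp4 held 26.9, 20, 27.5 and 33.1 CPM in OAL and 7.35, 8.52, 13.7 and 14.9 CPM in OCR (log2 fold change -1.28 ± 0.175). Id2, a target of BMP signals, fell by 1.05 on the log2 scale, and it is in the aging list. Of 44 niche homing and G-protein-coupled receptor genes, 5 were lower and 1 was higher. The share called was 13.6%, near the 11.1% of genes with a mean of 5 CPM or more. Gpr183, a receptor for oxysterols, held 130, 123, 109.7 and 134 CPM in OAL and 36.2, 38.3, 53.7 and 44 CPM in OCR, and fell by 1.53 on the log2 scale. Ramp2, a subunit of the adrenomedullin receptor, fell by 0.88 on the log2 scale with overlap, since replicate 3 of OCR held 40.2 CPM.

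Receptor tyrosine kinases had 4 lower of 42 tested (9.52%, near the 11.1% of genes with a mean of 5 CPM or more) and none higher, while DESeq2 called 1 higher and edgeR had 4 higher at an unadjusted p below 0.05. The count was 1 without replicate 2 or 3 of OAL, and 2 without replicate 1 or 4 of OAL or replicate 2 of OCR or with the scaling from better expressed genes. Kdr, the VEGF receptor, led them (43.4 ± 2.54 against 19.7 ± 5.47 CPM, log2 fold change -1.14 ± 0.134, in the aging list). Notch genes had 5 lower of 28, and 1 to 5 over single left-out libraries (1 without replicate 1 of OCR, 2 without replicate 1 or 2 of OAL, and 3 without replicate 4 of OAL or replicate 2 of OCR), and 2 with the scaling from better expressed genes. AP-1 and other immediate early genes had 7 lower and 1 higher of 29. Jun held 53.8, 48.6, 54.3 and 60.1 CPM in OAL and 25.7, 21.6, 23.6 and 27.9 CPM in OCR (log2 fold change -1.13 ± 0.101), and Junb fell by 0.60 on the log2 scale. Interferon-stimulated genes had 11 lower of 55, with 5 without replicate 2 of OAL and 7 without replicate 1 of OCR. None was higher in edgeR or DESeq2, with 2 higher at an unadjusted p below 0.05 in edgeR. The clock list moved both ways, with log2 fold changes of 0.52 for Per3, 0.55 for Tef and -0.77 for Bhlhe40. Bhlhe40, a DEG in edgeR but not in DESeq2, held 84 CPM in replicate 1 of OAL against 34.4 to 44.1 CPM in the other 3, and its log2 fold change without that library was -0.40.

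Adhesion genes moved in both directions. Among 26 tested integrins, 3 were higher and 1 was lower (15.4%, beside 11.1% of genes with a mean of 5 CPM or more). The lower was Itgb3, the beta subunit of the platelet and stem cell integrin. Itgb3 held 374, 404, 314 and 345 CPM in OAL and 163, 214, 202 and 236 CPM in OCR (log2 fold change -0.82 ± 0.0978, edgeR adjusted p = 1.09e-06). Itga4, a subunit of VLA-4, rose from 137 ± 12.3 to 181 ± 22.5 CPM, and the leukocyte subunit Itgb2 had a log2 fold change of 0.54 with overlap, and was not a DEG with DESeq2 (adjusted p = 0.0946) or without replicate 1 or 3 of OAL or replicate 2 of OCR. Only 1 integrin was higher without replicate 3 of OAL or replicate 2 of OCR, and 5 were with the scaling from better expressed genes. Of 69 surface adhesion genes, 11 were lower and 2 higher, with 7 lower without replicate 2 of OAL. Emcn, a sialomucin of stem cells and endothelium, had a log2 fold change of -0.83 and Jam2, a junction protein, of -0.73, both without overlap of the groups. The 10 endothelial markers, Emcn among them, summed to 147 to 202 CPM in OAL and 141 to 194 CPM in OCR, with 1 called higher and 1 lower. The defining genes Cdh5 and Lyve1 were below 2 CPM in all libraries, whereas Egfl7 (57.4 to 87.7 CPM) and Cldn5 (38.3 to 93 CPM) were not, and the part of endothelial cells in these changes was not tested. Of 49 actin and cell shape genes, 5 rose and 4 fell (2 without replicate 2, 3 or 4 of OAL or replicate 4 of OCR), the former including Marcksl1 (0.66), Tmsb10 (0.59) and Tpm4 (0.56). Of 55 matrix genes, 7 fell and 2 rose (16.4%), with a log2 fold change of -0.77 for Timp3, an inhibitor of matrix proteases. The lists not described further, shown by their counts, were Wnt (1 higher and 4 lower of 48), iron and haem (2 and 1 of 27), eicosanoids (0 and 4 of 25), NF-kB (0 and 2 of 33) and mast cells (0 and 1 of 14). The shares called were 10.4%, 11.1%, 16%, 6.06% and 7.14% in the same order, beside the 11.1% given above. Lower Wnt genes numbered 1 without replicate 4 of OAL and 2 without replicate 1 or 2 of OAL or replicate 1 of OCR, and 4 NF-kB genes were lower without replicate 4 of OCR. No MHC class II gene of 10 was a DEG in edgeR or DESeq2, with 1 higher and 2 lower at an unadjusted p below 0.05 in edgeR, and 2 were lower without replicate 1 of OAL.

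**Figure D3:**
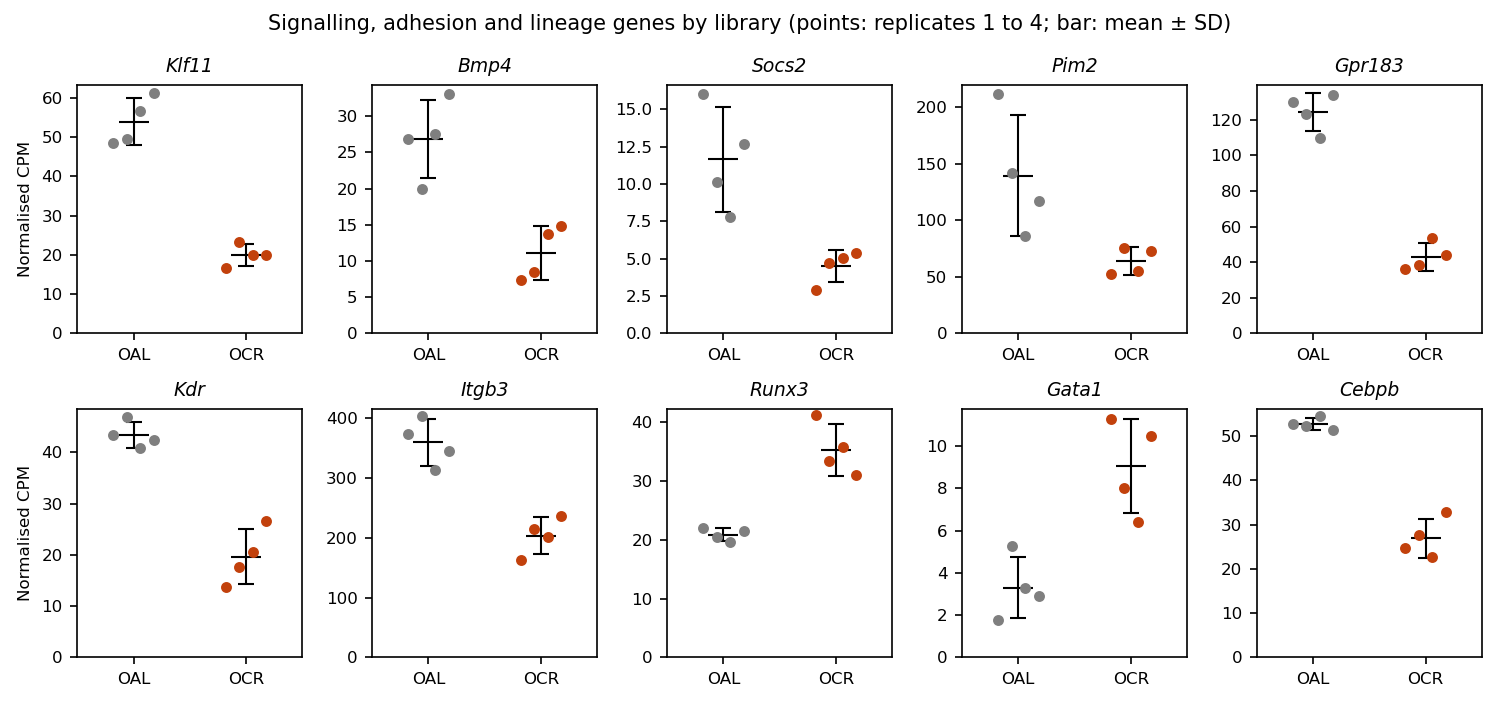
Normalised CPM (y axis) of 10 signalling, adhesion and lineage genes in each OAL (grey) and OCR (orange) library, with the mean and SD as a bar. Runx3 and Gata1 are higher in all OCR libraries and the other 8 genes are lower in all of them.

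Among 51 stem cell transcription factors, 11 were lower and 3 higher, and 8 to 12 were lower over single left-out libraries, or 7 without replicates 1 and 3 of OAL together. Runx3, a factor of lymphoid and myeloid cells, held 22, 20.4, 19.6 and 21.5 CPM in OAL and 41.2, 33.3, 35.8 and 30.9 CPM in OCR, with no overlap and a log2 fold change of 0.76 ± 0.106. Sox6, known from erythroid maturation, rose by 0.69 on the log2 scale. Gfi1, which restrains HSC proliferation, had a log2 fold change of -0.90 with overlap of the groups, and was not a DEG without replicate 3 of OAL, without replicate 2 or 3 of OCR, with DESeq2 (adjusted p = 0.117) or with the receptor genes as a covariate (adjusted p = 0.0553).

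Of 33 tested erythroid genes, 5 rose and 6 fell, and 3 rose without replicate 1 or 2 of OCR. Gata1, the main erythroid and megakaryocyte factor, lies at chrX:7959260-7978071 and held 1.76, 5.28, 3.3 and 2.9 CPM in OAL and 11.3, 8.03, 6.42 and 10.5 CPM in OCR. The log2 fold change was 1.46 ± 0.236 (edgeR adjusted p = 0.000112). The hemoglobin genes fell, with log2 fold changes of -2.22 for Hbb-bs and -2.17 for Hba-a1, but replicate 2 of OAL, with 14.6 and 7.41 CPM, lay within the OCR range of 9.39 to 29.2 and 3.46 to 14.7 CPM. Reads can be shared between the near-identical Hba-a1 and Hba-a2. The erythroblast sum of replicate 2 of OAL given above was also within the OCR range, and the part of contaminating red cell RNA in these changes was not tested.

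Of 44 granulocyte and monocyte genes, 4 rose and 4 fell. Cebpb, the factor of emergency granulopoiesis, held 52.6, 52.2, 54.6 and 51.4 CPM in OAL and 24.6, 27.6, 22.7 and 32.8 CPM in OCR (log2 fold change -0.97 ± 0.105). Log2 fold changes were 0.83 for Anxa2 and 1.21 for Plac8, the latter with 5.24 to 26.1 CPM in OCR against 3.75 to 8.58 CPM in OAL, and not a DEG without replicate 1 of OCR, with DESeq2 (adjusted p = 0.106) or with the replicate block (adjusted p = 0.0577). Lymphoid genes had 9 lower and 1 higher of 45. The largest was Igkc, which rests on replicates 1 and 3 of OAL, and without those 2 libraries 6 lymphoid genes were lower. Gimap5 and Gimap6, GTPases of lymphocytes, had log2 fold changes of -0.71 and -0.52 without overlap. Reads can be shared among the Gimap genes. The summed T and NK cell genes given above were also lower in OCR, but most of that sum was Klrb1c. Of the 9 tested genes of that list, 6 had a positive and 3 a negative log2 fold change, with a median of 0.38. The part of such cells in these changes was not tested. Of 39 megakaryocyte genes, 5 were lower and 1 higher (15.4%, beside 11.1% of genes with a mean of 5 CPM or more). With the scaling from better expressed genes, 3 were lower and 3 higher. Lower genes numbered 2 to 7 and higher genes 0 to 4 over single left-out libraries, with 2 lower without replicate 1 of OCR, 3 lower without replicate 2 or 4 of OAL, and 4 higher without replicate 4 of OCR.

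Among the 15 largest changes in each direction, taken over genes whose mean reached 5 CPM without overlap and outside the cell cycle and aging lists, were genes of no list. The values that follow are log2 fold changes. Higher in OCR were Ankle1 (1.90), an endonuclease of blood cells, Arhgap19 (1.57), a GTPase-activating protein, Mfsd2b (1.42), a sphingosine 1-phosphate exporter of red cells and platelets, and Kcna3 (1.19), a potassium channel. Ankle1, Arhgap19, Sgo2a and Pkmyt1 are known from chromosome or cell division work and were missed by the cell cycle patterns. Lower were Car11 (-1.45), Prom2 (-1.37), the potassium channel gene Kcnb2 (-1.34), the myosin Myh14 (-1.20), the endothelial factor Sox18 (-1.11) and the angiotensin receptor Agtr1a (-1.08).

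**Figure D4:**
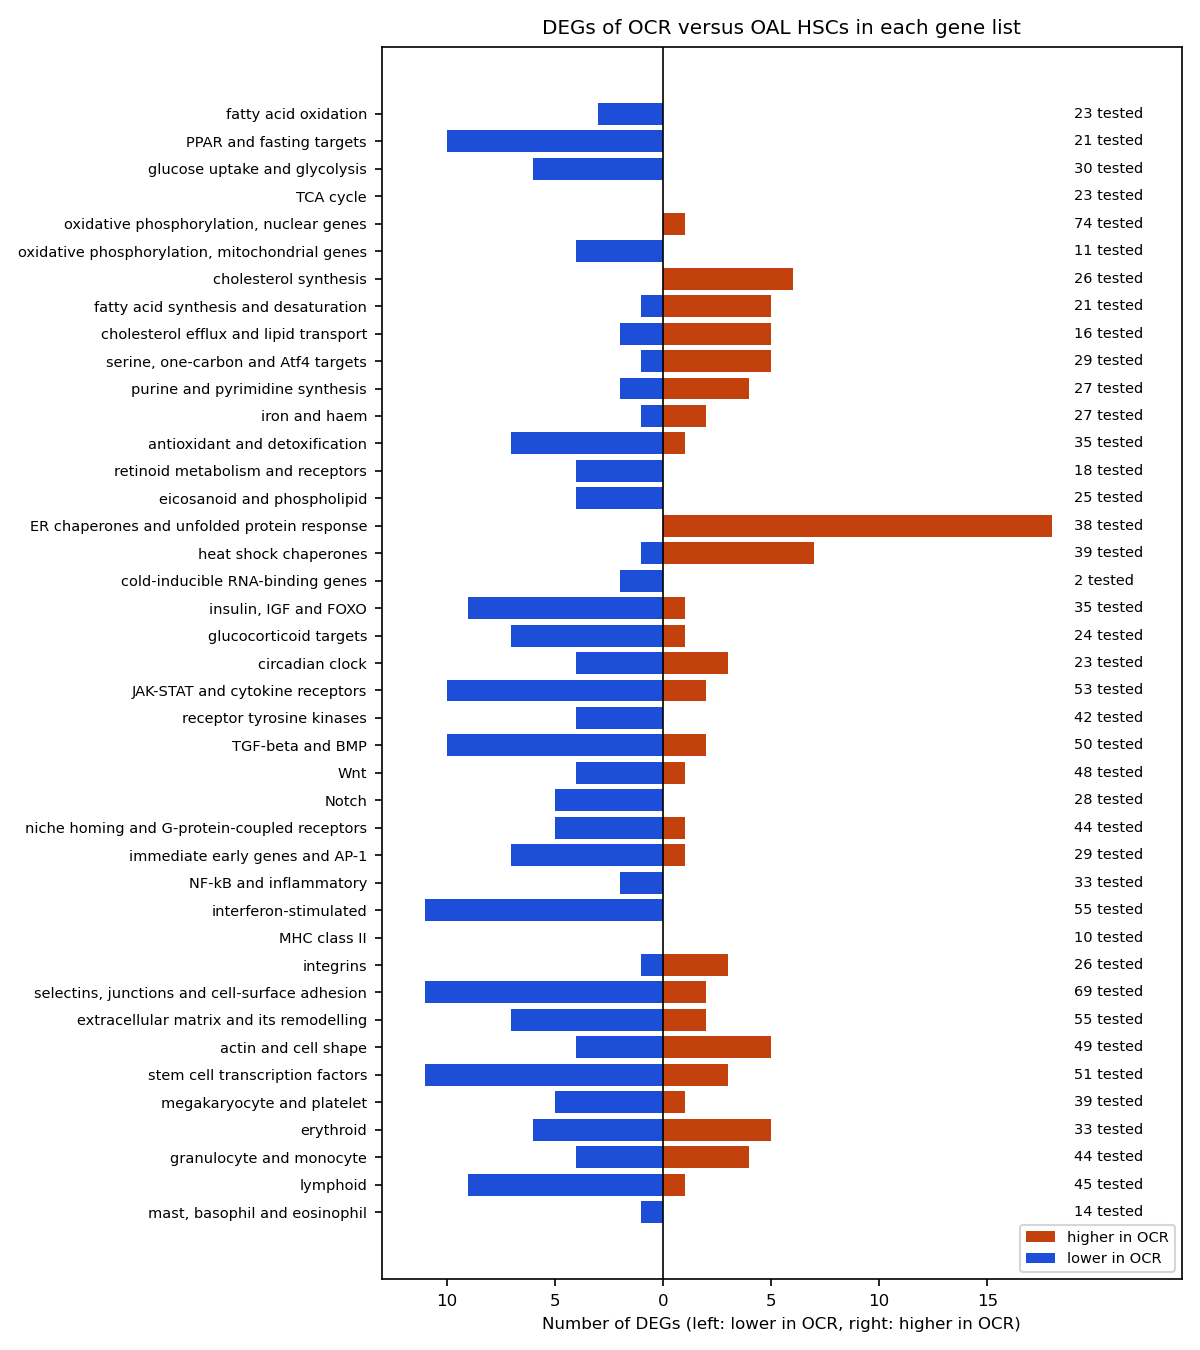
Number of DEGs of OCR versus OAL (x axis, higher to the right and lower to the left) in each of 41 gene lists (y axis), with the number tested. ER chaperones, with 18 higher of 38, and PPAR and fasting targets, with 10 lower of 21, have the largest shares among the lists with at least 10 genes tested.

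Short-term restriction of young mice gave an independent set of libraries. YCR mice, males of the same strain of 3 to 4 months, were restricted for 4 weeks, more mildly in the first. They were compared with ad libitum fed YAL mice, 4 libraries each, and 68 of 18680 tested genes were DEGs (0.364%). Of 156 named DEGs of the old comparison that were tested in young HSCs, 138 (88.5%) had a log2 fold change of the same sign, beside 82.5% of all DEGs and 60.8% of all genes tested in both, and 19 were DEGs in the same direction and none in the opposite one. Young DEGs among them were Klf11 (-1.29), Socs2 (-2.02), Pim2 (-1.28), Txnip (-0.57), Abcg1 (0.68), Sdf2l1 (1.14), Hspa8 (0.80), Runx3 (1.31) and 11 more. Pdk4 had a log2 fold change of -2.34 in young HSCs but did not pass (adjusted p = 0.411). The old and young effects themselves were compared in 1 fit, and 9 of 28328 genes (0.0318%) differed at an adjusted p below 0.05, among them the named genes Sult1a1, Itgb3 and Igkc. Itgb3 had log2 fold changes of -0.82 in old and 0.53 in young HSCs (difference -1.35, adjusted p = 0.039). With the replicate block in edgeR none of these 3 passed (adjusted p of 0.0829 for Sult1a1, 0.22 for Itgb3 and 0.293 for Igkc). The replicate numbers did not pair the old libraries, as given at the end, and pairing of the young ones was not examined. Over 16 fits with a library left out, Sult1a1 passed in 16, Igkc in 5 and Itgb3 in 4. Fewer genes passed the filter in young than in old libraries (18680 against 27150). Age, length of restriction and library quality cannot be told apart.

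**Figure D5:**
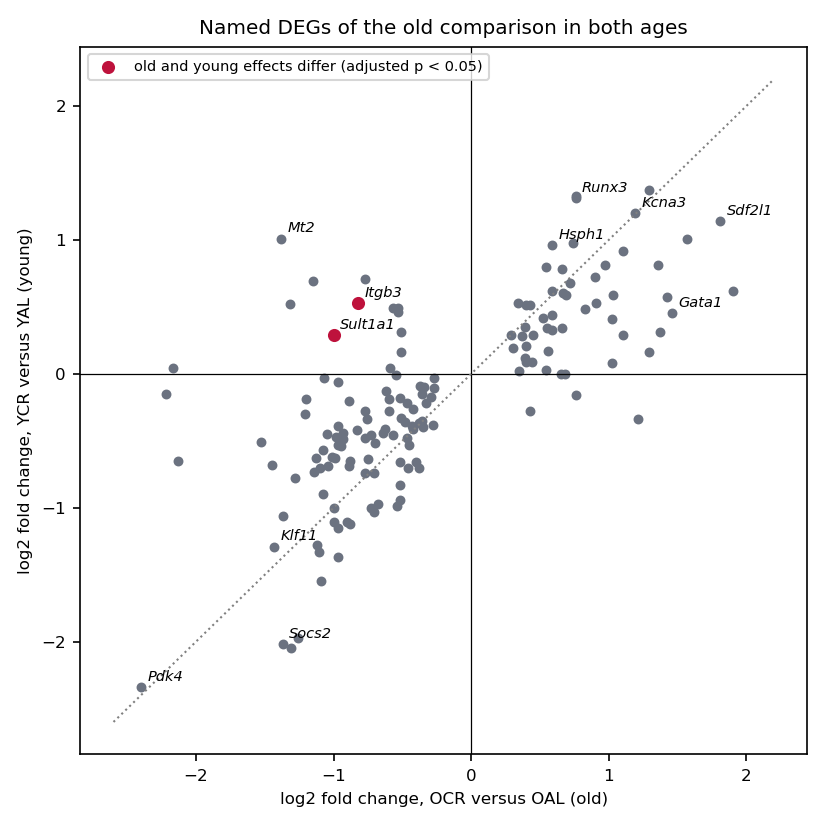
Log2 fold change of each named DEG in old HSCs (x axis, OCR versus OAL) and in young HSCs (y axis, YCR versus YAL), with the dotted line at equal values. Red points, Sult1a1 and Itgb3, had effects that differed between the old, lifelong and the young, short-term comparison. Igkc, whose effect also differed, lies outside the axes at -7.35 and 4.92 and is not drawn.

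Chromatin in OCR HSCs was described at the same genes, with no OAL histone libraries used here. Among DEGs outside the cell cycle list whose mean reached 5 CPM, the median promoter H3K4me3 signal in the 2 OCR replicates was 28.1 and 27.5 for genes higher in OCR and 25.5 and 24.2 for those lower, against 30.7 and 29.4 for all genes at this level. The median H3K27me3 signal was 0.2 and 0.22, 0.222 and 0.241, and 0.187 and 0.191, in the same order. A PU.1 peak in both OCR replicates lay within 1000 bp of a start site for 6.86% of the higher and 5.74% of the lower DEGs. The share was 6.26% for genes at this level outside the cell cycle list that were not called. For all genes at this level, cell cycle genes and DEGs included, it was 6.27%. Cpt1a was among the bound genes, with a fold enrichment of 15.6 and 18.8 in OAL and 19.1 and 20.4 in OCR. These shares lie close to the background and carry no test.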

How the data were processed

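Before deposit, the authors trimmed reads (trim galore 0.4.3, cutadapt 1.12), aligned them by STAR to mm10 and assigned them to GENCODE M22 genes using featureCounts. The deposited values were raw counts for 55376 symbols. Strand and multi-mapping settings are not given in the sources used here, so overlapping and near-identical genes are uncertain. Histone values deposited by the authors were signal per region, and PU.1 peaks, called per library, carried a fold enrichment (ratio).

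Counts were filtered (filterByExpr), TMM-scaled and fitted with edgeR 4.0.16 (R 4.3.3) by the quasi-likelihood test, with Benjamini-Hochberg adjustment over all tested genes. SEs were the absolute log2 fold change over the square root of F. DESeq2 1.42.0, other filters and scalings, a replicate block and left-out libraries were alternatives. In 10 simulated sets, 200 genes were changed 2-fold for OCR versus OAL, and calls used the adjusted p alone, without the fold threshold. Of changed genes above 5 CPM, 98.3% were recovered, and of all changed genes 51%. Of all calls, 6.16% were false. At 1.5-fold, these shares were 76.6%, 34.6% and 9.44%. For the difference between the old and young effects at 2-fold, 44.9% of changed genes above 5 CPM and 19% of all changed genes were recovered. At 1.5-fold, 1.42% and 0.6% were recovered and 20% of calls were false.

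Named genes were the 15 largest non-overlapping DEGs in each direction (mean of 5 CPM or more, outside the cell cycle and aging lists), up to 4 DEGs per list at that level, the 5 sort markers, Cirbp and Rbm3. Libraries entered by their labels, but the choice of these members as a comparison and of the lists was made with earlier results of these data known. Gene coordinates are from GENCODE M21 on GRCm38.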

Additional observations from a re-analysis of the deposited data

Results flagged for a closer look

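A named gene was set apart where 1 library of a group stood far from the other 3 by Dixon's test at the 95% level. Chance alone meets this in about 1 of 20 groups. The rule was applied to 161 named genes in both groups, OAL and OCR. The flags below are about as many as that rate gives, so they describe single libraries and are not results about the genes. In OAL, replicate 1 stood apart for Adgrl1 (28.1 CPM, high), Axl (20.6, low), Lfng (56.8, high) and Lss (26.6, low), replicate 3 for Cited2 (346, high), and replicate 4 for Angptl4 (14.9, high), Pdk4 (14.2, high), mt-Nd4 (572, high), Ephb4 (17, low) and Scd2 (154, low). In OCR, replicate 1 stood apart for Dhrs3 (15.8, low) and Slfn2 (18.7, low), replicate 2 for Cpt1a (238, high), Lrp8 (64.1, high) and Mthfd2 (10.6, high), replicate 3 for Ramp2 (40.2, high) and replicate 4 for Dlk1 (20.6, high).

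The restriction effect differed between old and young HSCs for 3 named genes in the edgeR test of the difference itself. It did so for none of the 3 with the replicate block, although replicate numbers did not pair the old libraries. Sult1a1, a sulfotransferase, fell in old HSCs from 311 to 432 CPM in OAL to 141 to 195 CPM in OCR, and its log2 fold change in young HSCs was 0.29, a difference of -1.30 ± 0.173 (adjusted p = 0.00526). The difference was -1.35 for Itgb3 (adjusted p = 0.039). For Igkc it was -12.27 (adjusted p = 0.0366), where 3 of 4 YCR libraries held 324 to 935 CPM, and replicates 1 and 3 of OAL were the only high libraries among the old ones. The part of plasma cells in this difference was not tested.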

How the results depend on the processing

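DEGs of OCR versus OAL numbered 1054 to 1653 with a single library left out. By direction, the DEGs of OCR versus OAL, higher, numbered 512 to 832 and the DEGs of OCR versus OAL, lower, 538 to 821, with 538 and 542 without OAL replicate 2 and OAL replicate 4. Without OAL replicates 1 and 3 together, a setting chosen after seeing the data, 956 were DEGs and 445 of them lower. DESeq2 gave 840 higher and 1087 lower, and the receptor genes as a covariate 982 and 727 (57.5% higher). With the replicate block there were 1430 (657 higher, 773 lower). The replicate numbers did not pair the samples, since deviations of same-numbered libraries correlated at -0.105, 0.0821, -0.138 and -0.0969, and none matched its own number best. The number of genes with an old minus young difference in the CR effect was 208 with DESeq2, 23 with no filter, 18 at a mean of 5 CPM or more, 1 with the replicate block, and 2 to 27 over left-out libraries. Of 157 named DEGs, 124 kept the call in all 8 fits with a library left out and 118 in all 10 other settings, and none reversed. Of 51 list medians, 24 moved past the spread in at least 1 setting.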
